A study of Homo sapiens with 4 samples.

Results

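The ubiquitin-specific protease (USP) genes encode the largest family of deubiquitinases, enzymes that remove ubiquitin from proteins. Their transcripts were followed in 769-P cells, an established line from a human clear cell carcinoma of the kidney, with and without induction of a short hairpin RNA (shRNA) against 1 of them, USP35. Members were the protein-coding genes named USP followed by a number and at most 1 letter, without 1 gene of that form that is not reported here and without the multicopy USP17L genes. This gave 51 members of 58735 genes, of which 42 had a mean of at least 1 FPKM (fragments scaled by gene length and library size) over the 4 libraries. The doxycycline group comprised 2 libraries of cells in which doxycycline at 1 µg/ml had induced the hairpin over 4 days, and the control group 2 libraries of the same cells left untreated. Both groups carry the stably transfected, inducible construct and were kept under puromycin, and the labels otherwise call the genotype wild type. Whether the line was 1 clone or a pool, and whether replicates were separate cultures, was not given in the sources used here, so every p-value rests on library-to-library spread that may be technical. Cells given doxycycline without the hairpin, or a further hairpin, were not analysed here, so an effect of doxycycline itself or of other targets of the hairpin cannot be told apart from an effect of lower USP35.

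USP enzymes are cysteine proteases that share a catalytic fold and differ in the regions around it, which set where they act and what they bind. By removing ubiquitin chains they can spare a protein from the proteasome, change its traffic or signalling, or, on histones, alter transcription and repair. In clear cell kidney cancer the family touches the VHL ubiquitin ligase, which is commonly lost in that disease and which binds USP33 and USP20. USP35 has been studied in mitosis, mitophagy and cell survival, and USP38 is its closest relative.

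Depth was 17481827 and 18764546 recovered reads with doxycycline and 16319640 and 17244546 in the controls. Each kept member had between 54 and 6464 reads in a library. Of 10 renal and clear cell carcinoma markers, 8 had a mean of at least 1 FPKM, with the kidney lineage factor PAX8 at 49.4 and 38.5 FPKM with doxycycline and 48.6 and 53.9 FPKM in the controls. CA9 and NDUFA4L2, genes usually high in clear cell carcinoma, did not exceed 0.09 FPKM in any library. None of the 6 leukocyte, 5 endothelial or 5 fibroblast markers was kept, and 3, 3 and 1 of them were at 0 in every library. Their summed levels were 0.161 and 0.155 FPKM with doxycycline and 0.0691 and 0.213 FPKM in the controls for leukocytes, 0.00512 and 0.0795 FPKM against 0 and 0 FPKM for endothelium, and 0.225 and 0.201 FPKM against 0.804 and 0.72 FPKM for fibroblasts. The doxycycline libraries also differed from each other outside the family. For the 8 interferon response markers the sum was 1183.7 FPKM in the first doxycycline library, 33.0 FPKM in the second, and 25.9 and 25 FPKM in the controls. The share of reads on mitochondrial genes was 7.44% and 14.63% with doxycycline, against 8.21% and 8.50% in the controls. The 8 proliferation markers summed to 188.2 and 198.6 FPKM with doxycycline and 499.6 and 431.2 FPKM in the controls. The part of these shifts in the results below was not tested.

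USP35 (ENSG00000118369) lies on the plus strand of chromosome 11 at 78188812 to 78214711 (GRCh38), and starts head to head with KCTD21, a gene of the minus strand. Its start region is shown because the hairpin acts on the transcript and not on this DNA, and because the 2 genes share it: the annotated 5′ end of KCTD21 falls at position 154 of 300 in the USP35 window. The start region of USP38 is set beside it as that of the closest relative, and that of USP25 as the member with the lowest p. Each window runs from 250 bases before to 50 bases after the RefSeq start site (GRCh38.p14), 5′ to 3′ on the gene's strand. The windows are chr11:78188669-78188968 (plus), chr4:143184667-143184966 (plus) and chr21:15729732-15730031 (plus). Capitals mark the letters GGGCGG (the GC box of SP1-type factors), CCGGAAG (an ETS core) and CCAAT, on either strand.
USP35: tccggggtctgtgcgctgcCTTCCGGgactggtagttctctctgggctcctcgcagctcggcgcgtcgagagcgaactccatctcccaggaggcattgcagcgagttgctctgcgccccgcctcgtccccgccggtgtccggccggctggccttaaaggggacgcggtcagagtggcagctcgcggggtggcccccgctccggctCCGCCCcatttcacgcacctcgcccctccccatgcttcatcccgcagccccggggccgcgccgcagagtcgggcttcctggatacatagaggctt
USP38: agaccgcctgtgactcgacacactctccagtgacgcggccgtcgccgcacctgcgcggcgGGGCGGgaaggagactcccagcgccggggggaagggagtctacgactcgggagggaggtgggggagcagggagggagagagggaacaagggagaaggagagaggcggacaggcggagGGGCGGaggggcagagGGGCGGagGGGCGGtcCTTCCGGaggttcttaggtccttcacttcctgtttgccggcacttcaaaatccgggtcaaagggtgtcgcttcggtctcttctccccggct
USP25: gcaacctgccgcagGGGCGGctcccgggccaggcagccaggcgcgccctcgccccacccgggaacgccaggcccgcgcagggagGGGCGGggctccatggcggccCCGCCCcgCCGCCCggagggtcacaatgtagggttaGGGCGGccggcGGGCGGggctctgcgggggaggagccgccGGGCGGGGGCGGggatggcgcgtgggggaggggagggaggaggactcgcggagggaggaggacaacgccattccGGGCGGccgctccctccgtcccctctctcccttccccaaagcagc
The USP35 window held 1 GC box and 1 ETS core, that of USP38 held 4 GC boxes and 1 ETS core, and that of USP25 held 9 GC boxes. None of the 3 held CCAAT. All 3 were rich in CpG, with 32, 26 and 34 CpG dinucleotides in the USP35, USP38 and USP25 windows. Windows were found for 39 of the 51 members. Of their 53 windows, 38 (71.7%) held a GC box, 13 (24.5%) an ETS core and 13 (24.5%) a CCAAT, while over all 35116 windows of the RefSeq table the shares were 45.0%, 10.3% and 34.6%. The member windows had a median of 29 CpG and 68.3% GC, against 14 and 58.7% over all windows, so the shares compare windows of unlike base composition. These matches describe letters and not binding.

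The family covered a wide range of levels in 769-P cells. USP22, the histone deubiquitinase of the SAGA coactivator complex, had 41.9 and 40.6 FPKM with doxycycline and 48.9 and 54.5 FPKM in the controls. USP5, which takes apart free ubiquitin chains, followed at 36.8 and 30.3 FPKM against 48.5 and 42.1 FPKM. USP14, which trims ubiquitin at the proteasome, stood at 37.6 and 37.2 FPKM against 34.0 and 30.4 FPKM, and USP10, a binding partner of the stress granule protein G3BP1, at 24.3 and 25.7 FPKM against 32.0 and 29.2 FPKM. In the controls USP5 lay above USP14 without overlap, whereas USP14 and USP10 overlapped. USP22 lay above USP5 only narrowly in the first control library (48.9 against 48.5 FPKM), so their order there is uncertain. USP9X, an X-linked enzyme known for stabilising MCL1, had 19.0 and 24.4 FPKM with doxycycline and 18.1 and 21.4 FPKM in the controls, next to USP1 and USP39 with no clear order. These leading 6 (USP22, USP5, USP14, USP10, USP1 and USP9X) made up 44.4% of the family's summed FPKM. Of the kept members, 18 had a mean under 5 FPKM. The median of the kept members' means was 6.61 FPKM, near the 6.44 FPKM of all 12029 genes kept.

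**Figure D1:**
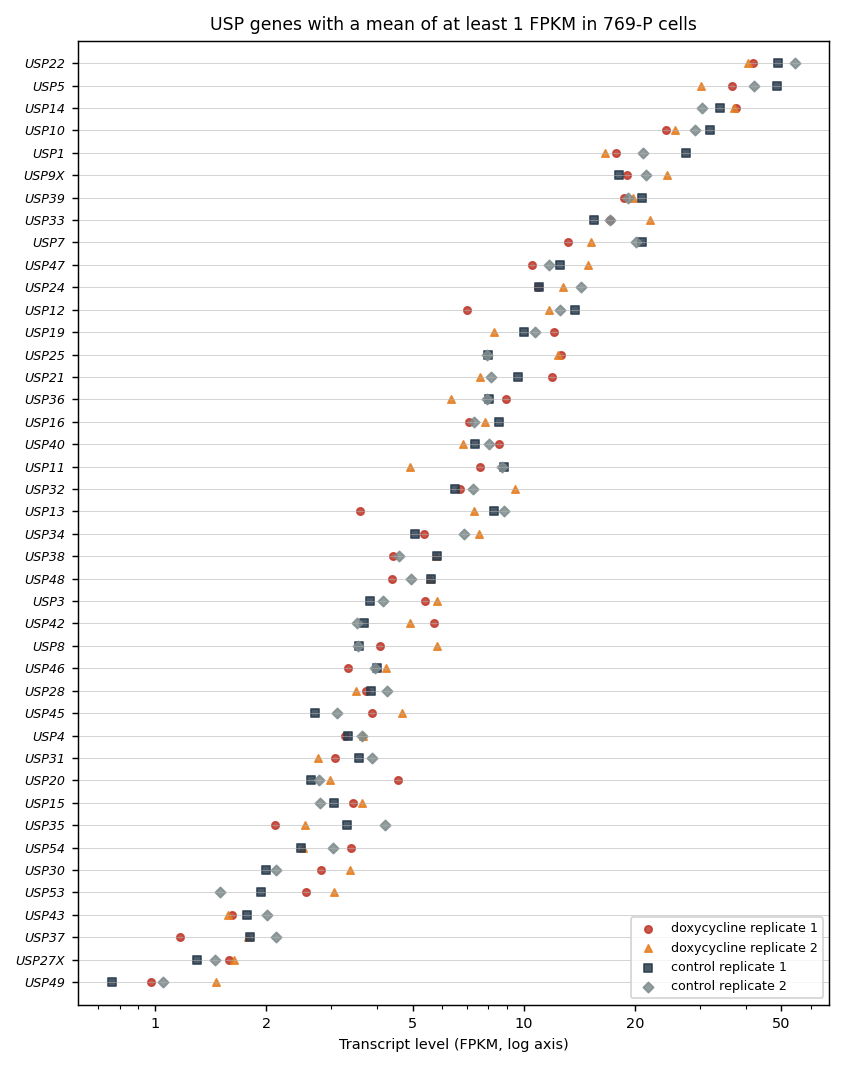
Transcript level of each of the 42 kept USP genes (FPKM, log axis) in the 2 doxycycline and 2 control libraries, ordered by the mean over all 4. USP22 leads at 40.6 to 54.5 FPKM, and USP35 lies in the lower part, at 2.11 and 2.54 FPKM with doxycycline and 3.31 and 4.19 FPKM in the controls.

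Of the 9 members left out of the test, USP6 was close to the 1 FPKM limit. This gene, an oncogene of bone and soft tissue tumours that shares much of its sequence with USP32, had 0.991 and 0.664 FPKM with doxycycline and 0.822 and 1.16 FPKM in the controls. The others had few reads or none. USP2 had 4 and 17 reads with doxycycline and 11 and 13 in the controls, and USP51, a histone deubiquitinase that uses the same adaptors as USP22, had 3 and 7 against 12 and 11. USP44, which acts at the spindle checkpoint, had 0 and 1 reads against 1 and 3, and USP26 had 0 and 0 against 0 and 1. USP29, USP41 and USP50 had 0 reads in every library, where the limit that a count of 0 allows is 3 reads. Reads of USP41 and USP50 are uncertain, since USP41 has a near-identical copy and 28.6% of the exon bases of USP50 lie under USP8 on the other strand. The remaining member is USP9Y, whose level is not given. FPKM was computed per union of all annotated exons, which lowers the level of genes with long alternative exons. For USP3 that length was 3.33 times the principal transcript, and per principal transcript its control rank in the family would be 17 in place of 26.

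As a check of the labels, the hairpin's own target was examined. USP35 had 2.11 and 2.54 FPKM with doxycycline and 3.31 and 4.19 FPKM in the controls. Both doxycycline libraries lay below both controls, and the 95% Poisson intervals of the doxycycline libraries (1.84 to 2.42 and 2.23 to 2.88 FPKM) lay below those of the controls (2.93 to 3.73 and 3.78 to 4.63 FPKM), which cover counting error only. These values rested on 208 and 243 reads with doxycycline and 275 and 382 reads in the controls. The ratio of the means was 0.62, and the log2 difference of -0.51 (95% interval -0.996 to -0.028) did not pass over all genes (limma adjusted p = 0.256). Of all genes kept, 15.3% had a difference as low or lower. In rank within the family USP35 stood 38th with doxycycline and 28th in the controls. In bulk RNA, fewer cells with the transcript and less transcript per cell cannot be told apart.

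No protein-coding gene within 100 kb of USP35 was lower in both doxycycline libraries. KCTD21, an adaptor of cullin ubiquitin ligases that starts at the same place on the minus strand, had 1.88 and 2.88 FPKM with doxycycline and 1.82 and 1.5 FPKM in the controls. Both doxycycline libraries lay above both controls, the first of them only slightly (ratio 1.43, limma adjusted p = 0.474). Only 11 of the 5233 exon bases of USP35 lie under KCTD21, so reads of the shared stretch are few. ALG8, a glycosyltransferase of the endoplasmic reticulum, had 15.3 and 16.9 FPKM with doxycycline and 17.5 and 16.8 FPKM in the controls. GAB2, a signalling adaptor that ends 585 bases downstream of USP35, had 1.95 and 1.6 FPKM against 1.73 and 2.11 FPKM. The groups overlapped for ALG8 and GAB2. Within 100 kb, the antisense RNA KCTD21-AS1 stayed under 1 FPKM, and RNU6-126P, a small RNA gene of 103 bases, had 3 and 4 reads with doxycycline and 0 and 1 in the controls.

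**Figure D2:**
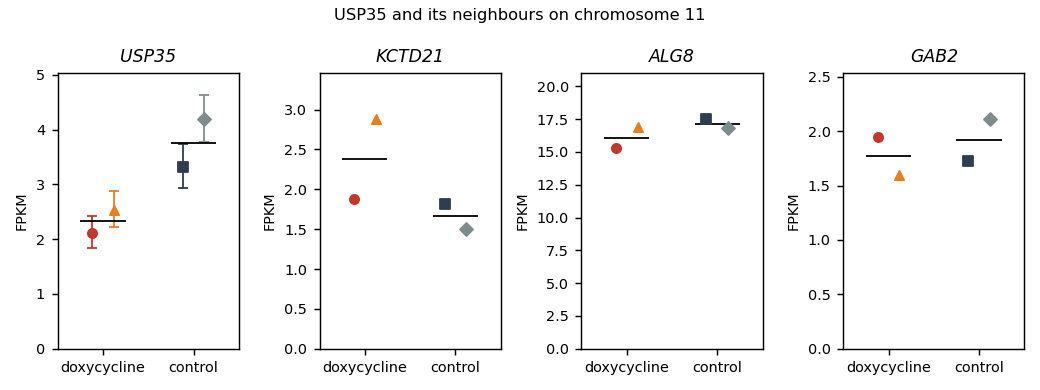
FPKM of USP35 and of 3 protein-coding genes within 100 kb in the doxycycline libraries (left in each panel) and the control libraries (right), with horizontal lines at the group means and, for USP35, 95% Poisson intervals of the read number. USP35 is lower in both doxycycline libraries (2.11 and 2.54 against 3.31 and 4.19 FPKM), while ALG8 and GAB2 overlap between groups.

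Across the family, differences after induction were small and lay on both sides of 0. Of 42 members kept, 0 had a limma adjusted p under 0.05, as had 0 of all 12029 genes (0.0%), and the lowest adjusted p of a member was 0.175. At an unadjusted p under 0.05 there were 2 members higher (USP25 and USP42) and 2 lower (USP7 and USP35), beside 6.47% of all genes higher and 11.9% lower. For 12 members (28.6%) each doxycycline value exceeded both control values, and for 13 (31.0%) each was below them, beside 24.3% and 28.9% of all genes. The deposited FPKM imply library sizes of 107.5% and 97.6% of the recovered reads with doxycycline and 97.2% and 101.0% in the controls. With library totals in its place, 12 members were higher and 11 lower, beside 28.5% and 24.5% of all genes. The same 12 lay above, and 10 of the 13 below, under each of 4 ways of scaling the libraries. No member differed by 1 or more on the log2 scale, as 5.54% of all genes did, and 54.8% of members stayed within 0.25 of 0, against 44.9% of all genes. The median log2 difference was -0.017 over the members and -0.026 over all genes. There were 19 positive and 23 negative differences, which became 29 positive when the libraries were rescaled without mitochondrially encoded genes and 23 under quantile normalization, so the balance of signs depended on the scaling. The summed FPKM of all 51 members was 405.8 and 422.0 with doxycycline and 446.2 and 439.6 in the controls.

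**Figure D3:**
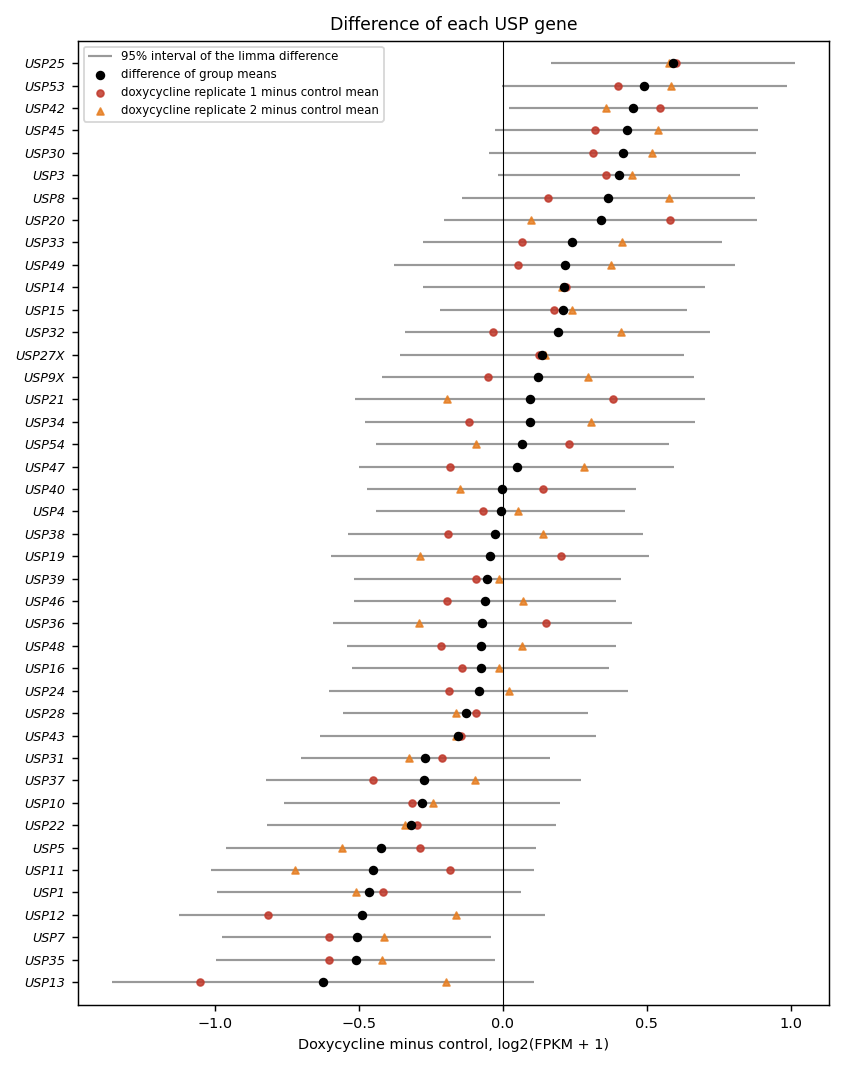
Log2 difference of each of the 42 kept USP genes, doxycycline minus control, with the limma 95% interval (grey line) and the 2 doxycycline libraries shown apart. USP25 has the largest positive value, 0.59, and USP13 the largest negative value, -0.63, and the 2 libraries lie close together for USP25 and far apart for USP13.

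Members with roles in DNA repair, replication and p53 control lay on both sides of their controls, and 0 passed over all genes. USP7, which holds MDM2 and p53 in balance, had 13.2 and 15.2 FPKM with doxycycline and 20.9 and 20.2 FPKM in the controls. The groups were well apart, with means of 14.2 ± 1.41 and 20.6 ± 0.514 FPKM (SD, n = 2 each), a ratio of 0.69 and a log2 difference of -0.51 (SE 0.19, limma adjusted p = 0.247). USP1, which takes ubiquitin off FANCD2 and PCNA, had 17.8 and 16.6 FPKM with doxycycline and 27.5 and 21.1 FPKM in the controls. Both doxycycline libraries were lower, and the controls were farther apart than the doxycycline libraries (ratio 0.708, limma adjusted p = 0.317). WDR48, the cofactor that USP1 needs, had 5.42 and 5.86 FPKM against 4.18 and 4.62 FPKM, so enzyme and cofactor lay on opposite sides of their controls. Of the genes of its substrates, PCNA had 92.7 and 85 FPKM with doxycycline against 211.2 and 165.7 FPKM and FANCD2 had 2.1 and 2.46 FPKM against 6.33 and 5.85 FPKM. USP37, which acts on cyclin A at the start of S phase, had 1.17 and 1.78 FPKM with doxycycline and 1.81 and 2.13 FPKM in the controls, and 32.8% of its exon bases lie under VIL1 on the other strand. The groups of USP37 overlapped under 2 of the 4 scalings. USP11, a partner of BRCA2, had 7.60 and 4.92 FPKM against 8.83 and 8.72 FPKM, lowest in doxycycline replicate 2 (ratio 0.714, limma adjusted p = 0.347). On the other side, USP42, which can deubiquitinate p53, had 5.72 and 4.91 FPKM with doxycycline and 3.69 and 3.52 FPKM in the controls (ratio 1.47, limma adjusted p = 0.259). USP45, an enzyme for the repair nuclease ERCC1, had 3.88 and 4.68 FPKM against 2.71 and 3.12 FPKM (ratio 1.47, limma adjusted p = 0.291). USP28, known for stabilising MYC, had 3.72 and 3.50 FPKM against 3.84 and 4.26 FPKM, a small gap that closed under 3 of the 4 scalings, and USP47 overlapped. The proliferation markers lay on the same side as USP1 and USP7. MCM5, for example, had 6.39 and 4.63 FPKM with doxycycline and 23.5 and 21.7 FPKM in the controls, and all 8 markers lay below both controls in both doxycycline libraries. The part of this shift in the USP1, USP7 and USP37 values was not tested.

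Of the histone deubiquitinases, those of the SAGA type lay on opposite sides of their controls. USP22 was lower in both doxycycline libraries (ratio 0.797, log2 difference -0.32, limma adjusted p = 0.443). USP27X, which uses the same adaptors, had 1.58 and 1.63 FPKM with doxycycline and 1.30 and 1.45 FPKM in the controls, slightly higher in both. Its values rested on 78 and 78 reads with doxycycline and 54 and 66 in the controls. Of the shared adaptors, ATXN7L3 had 20.8 and 13.8 FPKM against 16.6 and 15.7 FPKM and ENY2 12.6 and 11.3 FPKM against 15.1 and 11.7 FPKM. USP3, which removes ubiquitin from histones during DNA damage signalling, had 5.39 and 5.81 FPKM with doxycycline and 3.83 and 4.14 FPKM in the controls, higher in both (ratio 1.40, limma adjusted p = 0.285). Of its exon bases 22.7% lie under USP3-AS1, which did not exceed 0.05 FPKM. USP16, another histone deubiquitinase, overlapped at 7.09 and 7.85 FPKM against 8.56 and 7.34 FPKM, as did USP49 and the nucleolar USP36.

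Enzymes of the free ubiquitin pool and the proteasome also lay on both sides. USP5 was lower with doxycycline in both libraries (ratio 0.742, log2 difference -0.42, SE 0.22, limma adjusted p = 0.357). USP13, its relative with a part in quality control of the endoplasmic reticulum, had 3.60 and 7.33 FPKM with doxycycline and 8.28 and 8.82 FPKM in the controls. Doxycycline replicate 1 was far lower than replicate 2. The log2 difference of USP13 was -0.63 over all 4 libraries (limma adjusted p = 0.325) and -1.05 without doxycycline replicate 2 (limma adjusted p = 0.00129). The second fit takes its spread from the 2 controls alone and assumes that the lone doxycycline library varies like them, whereas the 2 doxycycline libraries were 0.857 apart. USP14 was slightly higher in both (ratio 1.16, limma adjusted p = 0.591). UBB, a gene of ubiquitin itself, had 122.6 and 106.1 FPKM with doxycycline and 157.0 and 130.8 FPKM in the controls, lower in both doxycycline libraries. UBA6, a ubiquitin-activating enzyme, had 5.48 and 6.84 FPKM against 9.11 and 7.98 FPKM, also lower in both (limma adjusted p = 0.315).

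Among enzymes of membranes and organelles, USP30, which sits on the mitochondrial outer membrane and restrains mitophagy, had 2.81 and 3.38 FPKM with doxycycline and 2.0 and 2.12 FPKM in the controls. Both doxycycline libraries were higher (ratio 1.5, limma adjusted p = 0.307), the more so replicate 2, in which the mitochondrial share of reads was also the largest at 14.63%. The part of that share was not tested. USP8, which sorts receptors at endosomes with STAM proteins, had 4.08 and 5.81 FPKM against 3.57 and 3.55 FPKM (ratio 1.39, limma adjusted p = 0.392). Of its partners, STAM had 10.8 and 14.9 FPKM against 10.9 and 11.4 FPKM and PTPN23 had 7.97 and 6.23 FPKM against 8.74 and 11.1 FPKM. STAM2 had 5.99 and 8.11 FPKM against 5.97 and 5.74 FPKM, higher in both doxycycline libraries but barely so in replicate 1. The VHL-binding pair peaked in different libraries. USP20 had 4.55 and 2.98 FPKM with doxycycline and 2.65 and 2.78 FPKM in the controls, highest in replicate 1, and USP33 had 17.1 and 22.0 FPKM against 15.5 and 17.1 FPKM, highest in replicate 2. USP10 was lower in both (ratio 0.817, limma adjusted p = 0.478), its partners G3BP1 at 21.1 and 25.3 FPKM against 26.2 and 25.8 FPKM and G3BP2 at 25.4 and 35.3 FPKM against 24.9 and 24.9 FPKM. USP9X and USP19, an enzyme anchored in the endoplasmic reticulum, overlapped between groups.

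Among members of signalling, USP25 had replicates close together in both groups. It acts on tankyrases and on innate immune signalling, and had 12.6 and 12.4 FPKM with doxycycline and 7.98 and 7.96 FPKM in the controls. The means were 12.5 ± 0.149 and 7.97 ± 0.015 FPKM (SD, n = 2 each), a ratio of 1.57 and a log2 difference of 0.59 (SE 0.17, limma adjusted p = 0.175). The control values of USP25 rested on 991 and 1085 reads, so their small SD understates the counting error. Of all genes kept, 6.63% had a difference as high or higher. The interferon marker IFIT1 had 161.3 and 4.51 FPKM with doxycycline and 2.38 and 2.41 FPKM in the controls. The part of the interferon response in the USP25 values was not tested. USP53, found at tight junctions, had 2.57 and 3.06 FPKM with doxycycline and 1.93 and 1.5 FPKM in the controls (ratio 1.64, limma adjusted p = 0.275). USP15, which acts in TGF-beta signalling, had 3.44 and 3.63 FPKM against 3.05 and 2.79 FPKM, slightly higher in both, and USP4 overlapped. USP12, which like USP46 needs WDR48 and WDR20, had 7.03 and 11.7 FPKM with doxycycline and 13.8 and 12.5 FPKM in the controls, lower mainly in replicate 1. Also kept were USP31 and USP43, lower in both doxycycline libraries with ratios of 0.784 and 0.843. With library totals as the scaling the groups of USP43 overlapped (ratio 0.872), while USP31 stayed lower. The remaining members kept were USP21, USP24, USP32, USP34, USP38, USP39, USP40, USP46, USP48 and USP54, whose groups overlapped. Of the exon bases of USP34, 18% lie under AHSA2P on the other strand.

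Setting relatives against each other within a library removes the scaling of that library. USP35 over USP38 was 0.48 and 0.438 with doxycycline and 0.57 and 0.915 in the controls. The ratio was lower in both doxycycline libraries, and the controls differed by more than the gap between the groups. USP38 alone had 4.41 and 5.79 FPKM with doxycycline and 5.81 and 4.58 FPKM in the controls (log2 difference -0.03, 95% interval -0.54 to 0.49), so a change of moderate size either way was not detectable. USP25 over USP28 was 3.39 and 3.54 with doxycycline and 2.08 and 1.87 in the controls, with means of 3.47 ± 0.106 and 1.98 ± 0.149 (SD, n = 2 each). USP7 over USP47 was 1.26 and 1.02 against 1.68 and 1.73, USP22 over USP27X was 26.4 and 25 against 37.6 and 37.7, and USP3 over USP16 was 0.759 and 0.74 against 0.448 and 0.564. The groups did not overlap for these 4 ratios, nor for USP11 over USP15, USP12 over USP46 and USP4 over USP15. They overlapped for USP5 over USP13, USP20 over USP33 and USP53 over USP54. USP27X rested on only 78 and 78 reads with doxycycline and 54 and 66 in the controls. The close control values of USP22 over USP27X therefore understate its counting error. With 2 libraries against 2 the smallest exact two-sided permutation p of any of the 11 ratios is 0.333, so none can pass.

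**Figure D4:**
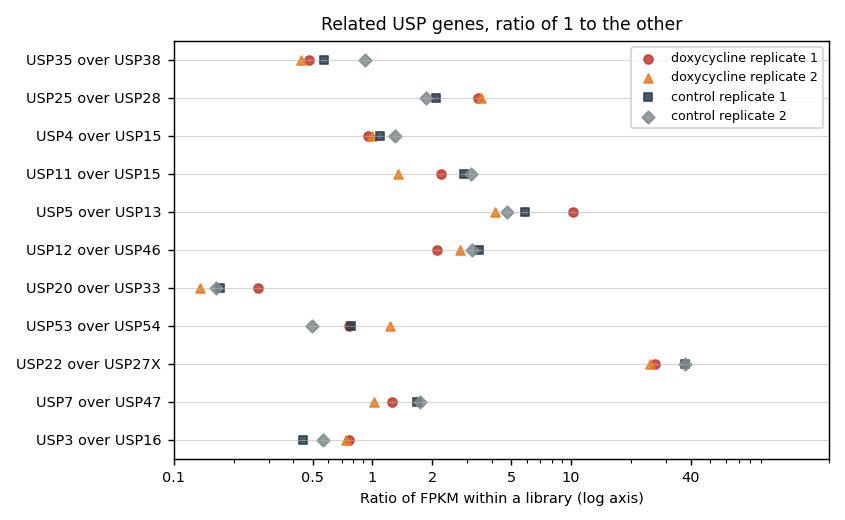
Ratio of the FPKM of a USP gene to that of a relative or functional counterpart within each library (log axis), for 11 ratios, doxycycline and control libraries. USP25 over USP28 does not overlap between groups (3.39 and 3.54 against 2.08 and 1.87), while USP5 over USP13 is high only in doxycycline replicate 1, at 10.2.

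The doxycycline libraries disagreed on several members. They were at least 0.5 apart on the log2 scale for 4 members (USP13, USP12, USP21 and USP11), and the controls for 0. They lay on opposite sides of the control mean for 14 of 42 members, beside 31.3% of all genes. The gap between the doxycycline libraries exceeded that between the controls for 29 of 42, beside 70.5% of all genes. Fits that leave out 1 doxycycline library set 1 library against 2 controls, so their spread comes from the controls alone and the lone library is assumed to vary like them. Without doxycycline replicate 1, 5 members passed (limma adjusted p under 0.05): USP25, USP45, USP8 and USP53 higher and USP11 lower, beside 32.8% of all genes (12.9% higher and 19.9% lower). Without doxycycline replicate 2, 4 passed: USP25 and USP20 higher and USP13 and USP12 lower, beside 13.3% of all genes (4.95% higher and 8.39% lower). USP25 was the member in both sets, with log2 differences of 0.58 and 0.60 (limma adjusted p = 0.027 and 0.041), while its adjusted p over all 4 libraries was 0.175. The 2 fits share both controls, so the sets are not independent. USP35 did not pass in either, at -0.42 without replicate 1 and -0.60 without replicate 2 (limma adjusted p = 0.105 and 0.0507).

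**Figure D5:**
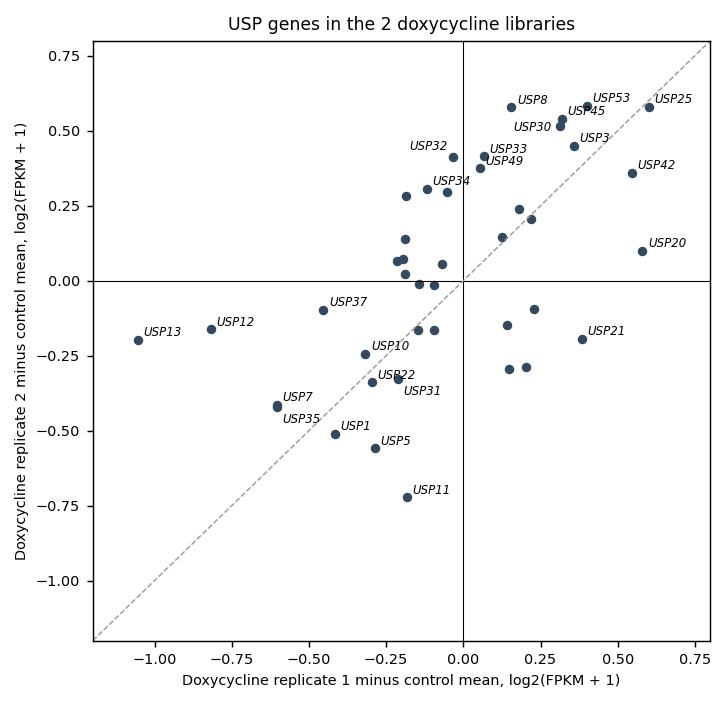
Log2 difference from the control mean of the 42 kept USP genes in doxycycline replicate 1 (horizontal axis) and replicate 2 (vertical axis), with the line of equal values dashed. USP25, USP7 and USP35 lie near the line, whereas USP13 (-1.05 and -0.20) and USP12 (-0.82 and -0.16) are low mainly in replicate 1 and USP11 (-0.18 and -0.72) mainly in replicate 2.

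Deubiquitinases and related genes without a USP name also gave no call. The list held 35 genes, mostly of the UCH, OTU, Josephin, JAMM and MINDY families. It included CYLD and PAN2, which belong to none of these. Of the 35 genes, 32 were kept and 0 passed, with 15 of 32 higher in both doxycycline libraries and 7 lower, beside 24.3% and 28.9% of all genes. The list median was 0.165, against -0.017 for the USP genes and -0.026 for all genes. OTUD1 had 2.72 and 2.76 FPKM with doxycycline and 1.14 and 1.76 FPKM in the controls, STAMBP, an endosomal enzyme, 10.2 and 11.5 FPKM against 7.24 and 7.80 FPKM, and VCPIP1, which works with the ATPase VCP, 7.62 and 10.7 FPKM against 5.93 and 6.32 FPKM. These were the 3 with the lowest p among those higher (limma adjusted p = 0.219, 0.253 and 0.289). Lower were OTUB2 at 17.8 and 7.14 FPKM against 30.1 and 27.2 FPKM and MPND at 2.93 and 2.13 FPKM against 4.80 and 4.32 FPKM (limma adjusted p = 0.191 and 0.18), then JOSD1 at 17.4 and 12.9 FPKM against 18.8 and 20.6 FPKM. The ratio of OTUB2 was 0.435, and its doxycycline replicate 2 was far lower than replicate 1. Of 16 partners of USP enzymes 13 were kept and 0 passed, with a median of -0.031.

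Of 6 proteins reported as USP35 substrates, 4 had kept genes and 0 passed over all genes. AURKB, the mitotic kinase, had 13.5 and 8.28 FPKM with doxycycline and 45.6 and 36.6 FPKM in the controls (ratio 0.265, limma adjusted p = 0.0587), alongside the proliferation markers. TNIP2 had 17.3 and 11.2 FPKM against 22.7 and 18 FPKM, BIRC2 11.8 and 12.4 FPKM against 9.64 and 9.20 FPKM, and RRBP1 31.8 and 21.5 FPKM against 28.4 and 29.9 FPKM. Deubiquitination acts on protein, which these transcript levels do not measure.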

How the data were processed

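RNA of 4 libraries (2 doxycycline, 2 control) was analysed. The values are FPKM made by the authors, per the file headers, in 1 table of 58735 genes per library. The submitters' processing notes list the tools HISAT2 2.0.5, featureCounts 1.5.0-p3 and limma without saying what each did. Build, strand setting and filters are not given in the sources used here. Without a known strand setting, reads of genes overlapping on opposite strands cannot be told apart. Coordinates of all 58735 genes and the lengths of all 51 members matched GENCODE 29 (GRCh38).

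Multiplied by length, FPKM gave whole reads for 100.0% of genes (tolerance 0.02 reads), hence the depths. Intervals, and the limit of 3 reads set by a count of 0, cover counting error only. Genes averaging 1 FPKM or more were tested by limma-trend (limma 3.58.1, R 4.3.3) on log2(FPKM + 1), two-sided, with Benjamini-Hochberg adjustment over all 12029 genes kept; this scale understates changes of low genes. The steps were run on simulated reads with large changes and equal spread in all libraries. That check does not cover small differences or doxycycline libraries that differ from each other. Members and lists were chosen with earlier results of these data known. Named in full are USP35, USP38, the 6 members with the lowest p in each direction and the 6 with the highest mean. Of other lists, up to 3 in each direction are named, apart from the partners of USP enzymes. Only some of those partners are given, beside their enzyme, and these were not picked by p. Python 3.11.15, pandas 2.3.3 and numpy 2.4.6 were used.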

Additional observations from a re-analysis of the deposited data

How the results depend on the processing

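USP35 stayed lower in all 12 alternatives in which it was tested, with log2 differences from -0.66 to -0.38 and adjusted p from 0.0507 to 0.962; leaving out 1 library gave -0.65 to -0.38. It is not in the fit with a mean of at least 5 FPKM. The number of USP genes called was 0 in each alternative except when a doxycycline library was left out, with a range of 0 to 5 over the 4 fits that leave out 1 library. For all genes the count was 0 over the 4 libraries (2204 at an unadjusted p under 0.05), 261 with a mean of at least 5 FPKM, 121 with limma-voom on recovered reads and median-of-ratios sizes, 0 with limma-voom and library totals, 242 over protein-coding genes alone (added after seeing the data), and 0 to 3942 when 1 library was left out. Other deubiquitinases called ranged over 0 to 8 when 1 library was left out. The cause was not tested. The labels share replicate numbers, but deviations of same-numbered libraries correlated at 0.207 over only 2 pairs, so the numbers are not taken to pair them; with the replicate block 784 genes, 1 other deubiquitinase and 0 USP genes were called, and USP35 stood at -0.51. The family median lay between -0.082 and 0.059. USP38 changed sign to 0.011 under quantile normalization, 0.052 without mitochondrially encoded genes, 0.019 and 0.007 with limma-voom on totals and median-of-ratios sizes, and 0.118 and 0.138 without control replicate 1 and doxycycline replicate 1, in a range of -0.189 to 0.138 when 1 library was left out. USP9X changed to -0.052 without doxycycline replicate 2, in a range of -0.052 to 0.296. Of 203 values recomputed for 16 USP genes, 190 kept their direction and their side of the threshold. Genes with few reads, such as USP44 and USP26, are limited by depth.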
